A study of Mus musculus with 12 samples.

Results

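Transcript levels were examined for 9 genes of lipoprotein uptake and lipid transport in cultured mouse astrocytes: the receptors Lrp2, Vldlr, Lrp1 and Lrp8, the secreted carriers Apoe, Clu and Apod, the lipid exporter Abca1 and the lipase Lpl. The 9 genes were taken by symbol and were chosen by their measured values, because Vldlr, Lrp2 and Apoe differed between groups in these tables. All 9 were among the 25923 genes listed for the overexpression experiment and among the 24509 listed for the knockdown experiment. Since both comparisons served to choose them, their differences are given as a description with no test.

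RNA was sequenced from primary cortical astrocytes of wild-type C57BL/6J mice taken at postnatal day 3. The cells were grown to confluence in medium with 10% serum for 8 to 10 days, subcultured, transduced, and then held in serum-free medium for 1 week. The 12 libraries formed 4 groups of 3: cells given a virus expressing GADD45G, their controls given GFP, cells given a short hairpin RNA against Gadd45g (shGADD45G), and their controls given the hairpin labelled shLuc. GADD45G is a small stress-inducible protein that acts upstream of the kinases p38 and JNK, and the study asked what it does in astrocytes. All 4 groups shared the wild-type background and the serum-free culture. The labels name neither the promoter driving GADD45G nor any pooling of pups. They also do not say whether the replicates came from separate cultures, so the errors and p-values below reflect only how far these libraries differ, which may be technical.

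Lipoproteins carry cholesterol and other lipids between cells. In the brain, astrocytes are a main source of apolipoprotein E, which is loaded with cholesterol by the exporter ABCA1 and taken up through receptors of the low-density lipoprotein (LDL) receptor family. LRP1 and LRP2 are giant endocytic members of that family, whereas VLDLR and LRP8 (also called ApoER2) are shorter members that also receive the signalling protein reelin.

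Total counts over listed genes ran from 15626655 to 20756461 per library. Pairs of replicate libraries gave a chi-square per degree of freedom, which would be 1 for counting error alone, of 2.11 to 3.15 in GFP, 2.23 to 2.98 in shLuc, 4.23 to 18.8 in GADD45G and 20.5 to 41 in shGADD45G. Gadd45g itself stood at 120.4, 133 and 132 CPM (counts rescaled so that every library has the same total) in GFP, 148, 142 and 136 in GADD45G, 142, 152 and 131 in shLuc, and 67.8, 149 and 122 in shGADD45G. Its log2 difference was 0.15 (adjusted p = 0.0298, edgeR's quasi-likelihood test) in the overexpression experiment and -0.32 (adjusted p = 0.408) in the knockdown experiment, where the groups overlapped. The library labelled shGADD45G 2 lay within the range of its controls. Gadd45g itself thus differed little between the labelled groups, so the experiments are called overexpression and knockdown after their labels alone, and directions are those between labelled groups. All 8 astrocyte markers were listed, with summed levels of 3278 to 4558 CPM, but they did not move together. In edgeR's test 6 of 8 were higher and 1 lower in GADD45G, beside 30.6% and 29.7% of all genes. Gfap was at 225 to 229 CPM in GFP and 1079.6 to 1272 in GADD45G, and Aldoc at 1469.8 to 1500.3 and 283 to 337. In shGADD45G 4 of 8 were lower, beside 5.27% of all genes. The same shares, with 5.15% higher in shGADD45G, stand beside the marker counts below. GADD45G library 3 stood apart from its replicates: 8 lung epithelial markers summed to 1379 CPM there against 1.58 to 2.42 in the others, and 5 blood markers to 360.3 CPM against 0 to 0.0562. Where a result below rests on that library it is also given without it.

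The promoters of Vldlr, Abca1 and Lrp2 are shown first, because these members had the largest log2 difference of the 9 when each gene's larger value from the 2 experiments is taken. Each run is the RefSeq window on GRCm38.p6 from 250 bases before to 50 bases after the annotated start, 5′ to 3′ on the gene's own strand. Capitals mark matches to the searched motifs, read on both strands. The Lrp2 window is chr2:69585980-69586279 on the minus strand, the Vldlr window (the second of its 2 annotated starts, shown because it holds a match) is chr19:27216770-27217069 on the plus strand, and the Abca1 window is chr4:53159846-53160145 on the minus strand.
Lrp2: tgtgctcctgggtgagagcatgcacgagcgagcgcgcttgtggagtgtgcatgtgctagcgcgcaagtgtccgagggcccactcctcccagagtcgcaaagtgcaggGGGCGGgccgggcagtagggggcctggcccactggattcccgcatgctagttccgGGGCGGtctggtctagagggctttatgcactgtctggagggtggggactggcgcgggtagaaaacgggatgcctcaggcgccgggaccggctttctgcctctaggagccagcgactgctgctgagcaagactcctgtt
Vldlr: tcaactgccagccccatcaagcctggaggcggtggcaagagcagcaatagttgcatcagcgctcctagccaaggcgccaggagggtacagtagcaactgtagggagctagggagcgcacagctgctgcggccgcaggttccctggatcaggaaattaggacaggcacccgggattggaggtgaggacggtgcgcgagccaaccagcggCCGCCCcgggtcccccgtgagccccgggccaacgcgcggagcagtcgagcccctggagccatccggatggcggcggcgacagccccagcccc
Abca1: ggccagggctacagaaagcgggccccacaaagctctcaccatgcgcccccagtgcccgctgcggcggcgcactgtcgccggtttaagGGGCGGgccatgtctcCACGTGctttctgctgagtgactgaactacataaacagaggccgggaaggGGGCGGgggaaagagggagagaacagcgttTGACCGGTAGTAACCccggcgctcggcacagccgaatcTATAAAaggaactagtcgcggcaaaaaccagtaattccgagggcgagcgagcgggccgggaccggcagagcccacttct

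In the Lrp2 window the capitals are 2 copies of GGGCGG, the GC box bound by Sp factors, at positions -143 and -88 from the start. The Vldlr window has a single GC box, on the opposite strand at -42, and the first Vldlr start, chr19:27216234-27216533, had no match. The Abca1 window has GC boxes at -163 and -97, the E-box CACGTG at -147 (which contains ACGTG on each strand), TATAAA at -29, and the run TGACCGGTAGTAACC at -67. In human ABCA1 a closely similar element, a repeat with a gap of 4 bases, binds the liver X receptors, which switch on cholesterol export. This run was added to the search after the Abca1 sequence had been seen. Its match there was thus known beforehand. It is held on either strand by 2 of 32851 mouse windows (0.00609%), which include the Abca1 window. Because the run is much longer than the other motifs, its rarity cannot be compared with theirs, and nothing is read from it. The share of windows was 35.7% for GGGCGG, 19.6% for ACGTG, 7.15% for CACGTG and 13.6% for TATAAA. GC content was 65% in the Lrp2 window, 68% in the Vldlr window shown (43% at the first start) and 62.7% in the Abca1 window, against a median of 52.7% over all windows (quartiles 45.7% and 61.7%).

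Vldlr and Lrp2 were the receptors with the largest differences, and both had higher transcript levels in the treated libraries of both experiments. Vldlr was 5.04-fold higher in GADD45G than in GFP and 2.55-fold higher in shGADD45G than in shLuc. Lrp2 was 1.26-fold and 2.82-fold higher in the same comparisons. Whether the size differed between experiments was not tested. Levels are CPM after scaling all 12 libraries together. The 2 experiments are separate tables, so levels are set side by side across them with no test. In bulk RNA, fewer cells of a type and less RNA per cell cannot be told apart.

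Vldlr (ENSMUSG00000024924, chromosome 19 from 27216484 to 27254231, plus strand, mm10) encodes the very-low-density lipoprotein receptor, which binds ApoE-rich particles and reelin. Its level was 10.2, 9.83 and 10.00 CPM in GFP libraries 1 to 3 and 53.8, 46.7 and 50.0 CPM in GADD45G libraries 1 to 3. Under the hairpins it was 12.4, 10.7 and 13.1 CPM in shLuc and 29.2, 29.5 and 32.9 CPM in shGADD45G. Every treated library stood above every control library of its own experiment, and the GADD45G libraries stood above the shGADD45G libraries as well. The log2 difference was 2.33 (SE 0.08) for GADD45G against GFP, and 393 of 15418 genes had a larger one. For shGADD45G against shLuc it was 1.35 (SE 0.12), and 66 of 14914 genes had a larger one. With any 1 library left out, these values stayed between 2.26 and 2.41 and between 1.27 and 1.42.

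Lrp2 (ENSMUSG00000027070, chromosome 2 from 69424340 to 69586065, minus strand) encodes megalin, an endocytic receptor best known from absorptive epithelia and also from the ependyma and choroid plexus of the brain. Its level was 105, 85.5 and 94.3 CPM in GFP and 125, 118 and 112 CPM in GADD45G. It was 65.2, 61.1 and 70.6 CPM in shLuc and 185, 159.8 and 207 CPM in shGADD45G. The 4 groups did not overlap, in the order shLuc, GFP, GADD45G and shGADD45G. Between shGADD45G and shLuc the log2 difference was 1.50 (SE 0.11), ranging from 1.40 to 1.59 with any 1 library left out, and 41 of 14914 genes had a larger one. In the overexpression experiment it was 0.33 (SE 0.07) and was 0.22 without GFP library 2, which held the lowest GFP level.

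Markers of cell types that hold megalin moved as follows. The 7 choroid plexus markers summed to 18.6 to 19.9 CPM in shLuc and 18.7 to 20.1 CPM in shGADD45G. The 7 ependymal markers summed to 775 to 817 CPM in shLuc and 489.6 to 917 CPM in shGADD45G, and 3 of the 7 were lower and none higher in edgeR's test. In the overexpression experiment the ependymal sum was 308 to 314 CPM in GFP and 910.4 to 1003 CPM in GADD45G, with 7 of 7 higher. The choroid plexus sum was 14.2 to 17.2 CPM in GFP and 21.3, 19.6 and 69.6 CPM in GADD45G libraries 1 to 3. Aqp1 alone made 44.2 CPM of the sum in library 3, against 0.562 and 0.273 in libraries 1 and 2. Ttr and Clic6 were also highest in library 3, whereas Folr1, Kcnj13 and Otx2 were not. The choroid plexus marker Ttr had no count in shGADD45G, and Kl had none in GFP or shLuc. The part of these cells in the Lrp2 and Vldlr differences was not tested.

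**Figure D1:**
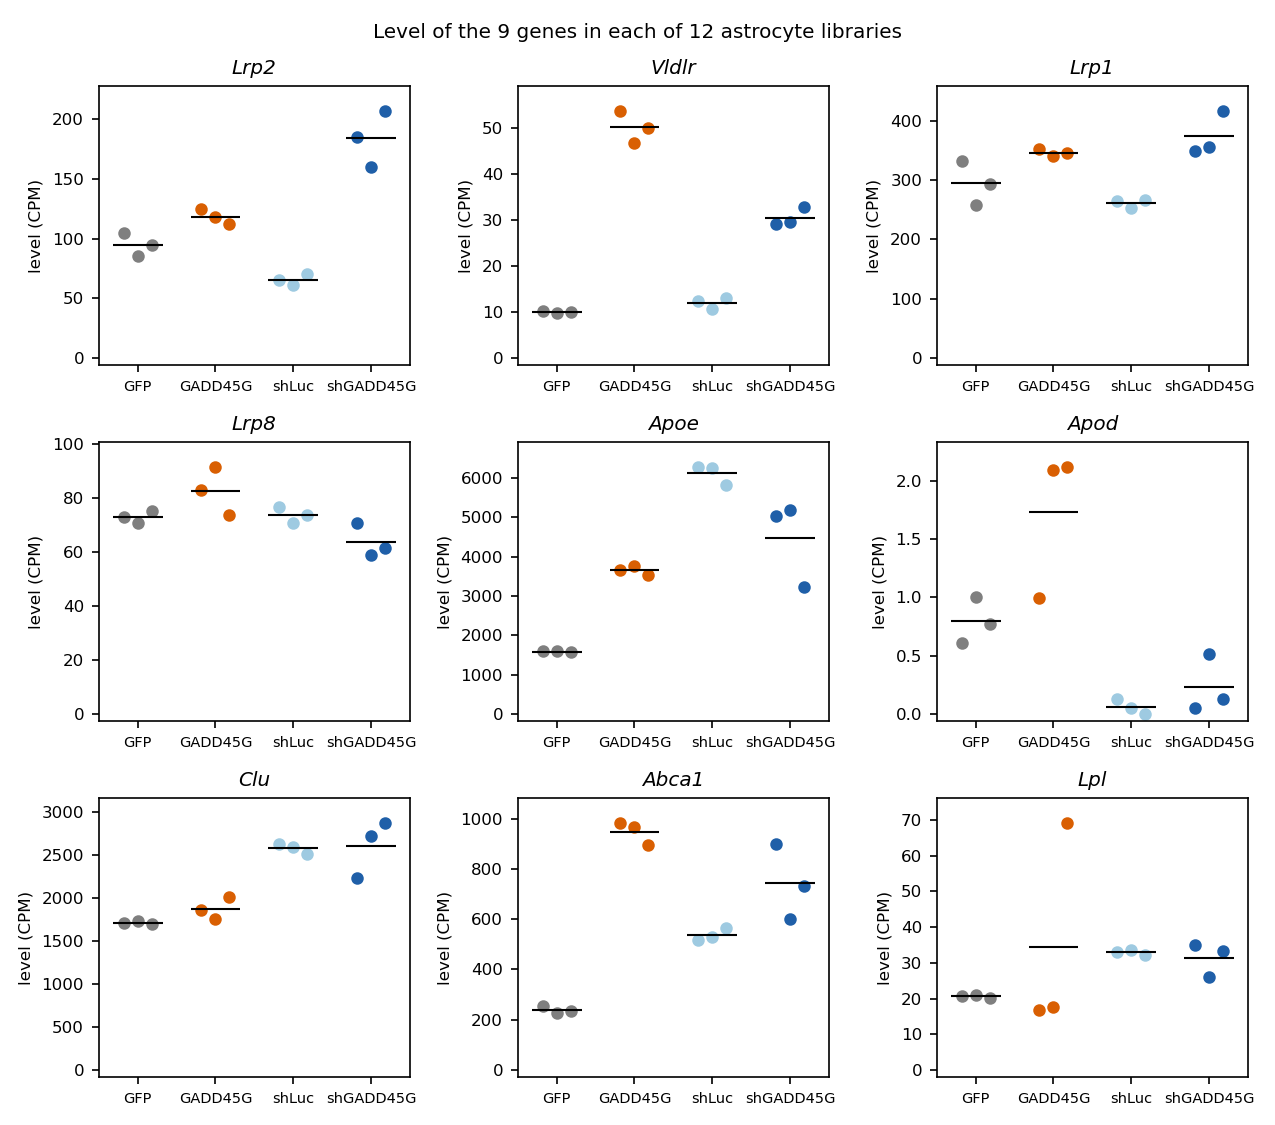
Level of each of the 9 genes (CPM, linear axes, 1 panel per gene) in the 3 libraries of each group, with points for libraries and lines for group means. Vldlr is at 9.83 to 13.1 CPM in the control libraries and at 29.2 to 53.8 CPM in the treated ones, and a single GADD45G library, at 69.2 CPM, sets the Lpl mean of its group.

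Lrp1 (ENSMUSG00000040249, chromosome 10 from 127538161 to 127621148, minus strand) encodes a broadly expressed endocytic receptor for ApoE and many other ligands. Its level was 332, 258 and 293 CPM in GFP and 352, 341 and 346 CPM in GADD45G. It was 264, 253 and 267 CPM in shLuc and 349, 356 and 417 CPM in shGADD45G. Treated libraries lay above control libraries in both experiments, narrowly so under GADD45G, while the 2 control groups overlapped each other and so did the 2 treated groups. The log2 difference was 0.52 (SE 0.09) for the knockdown. For the overexpression it was 0.25 (SE 0.08), and 0.12 without GFP library 2.

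Lrp8 (ENSMUSG00000028613, chromosome 4 from 107802261 to 107876840, plus strand), the reelin receptor ApoER2, gave the smallest receptor differences. Its level was 73.0, 70.9 and 75.1 CPM in GFP and 83.0, 91.6 and 73.6 CPM in GADD45G, and these groups overlapped. It was 76.8, 70.8 and 73.8 CPM in shLuc and 70.6, 58.8 and 61.4 CPM in shGADD45G, where all 3 libraries lay below the controls, library 1 only just. The log2 differences were 0.19 (SE 0.07) and -0.21 (SE 0.09), opposite in sign, and with any 1 library left out they ran from 0.13 to 0.27 and from -0.28 to -0.15.

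Per kilobase of gene length, Lrp1 held the largest share of the 4 receptors' transcripts in every group, Vldlr held a larger share in the treated libraries of both experiments, and Lrp2 did so in shGADD45G. The summed level was 30.2 ± 2.77 CPM per kb in GFP, 39.5 ± 1.21 in GADD45G, 26.9 ± 1.02 in shLuc and 41.2 ± 3.49 in shGADD45G (SD, n = 3 each). Vldlr was 3.31% ± 0.238 of that sum in GFP and 12.6% ± 0.808 in GADD45G, and 4.44% ± 0.299 in shLuc and 7.37% ± 0.263 in shGADD45G. Lrp2 was 18.8% ± 0.215 and 17.9% ± 0.482 in the overexpression experiment, and 14.6% ± 0.611 and 26.7% ± 1.39 in the knockdown experiment. The share that was higher by the most was that of Vldlr under GADD45G and that of Lrp2 under shGADD45G. These shares do not give the source of the higher sum, because the mean level of Lrp1 was also higher while its share was lower. Lrp1 was at 16.6 CPM per kb in GFP and 19.6 in GADD45G, and at 14.8 in shLuc and 21.1 in shGADD45G. Only Lrp8 had a lower mean level in a treated group, at 7.02 CPM per kb in shLuc and 6.05 in shGADD45G. Lrp1 was 54.8%, 49.6%, 54.9% and 51.2% of the sum in GFP, GADD45G, shLuc and shGADD45G. Lrp8 lay between 13.0% and 16.6% in shGADD45G and between 25.4% and 26.7% in shLuc, and was 23.1% in GFP and 19.9% in GADD45G on average. The ratio of Vldlr to Lrp8 per kb, the reelin receptor pair, was 0.144 ± 0.00392 in GFP, 0.639 ± 0.0941 in GADD45G, 0.170 ± 0.0139 in shLuc and 0.505 ± 0.0656 in shGADD45G (SD, n = 3 each).

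**Figure D2:**
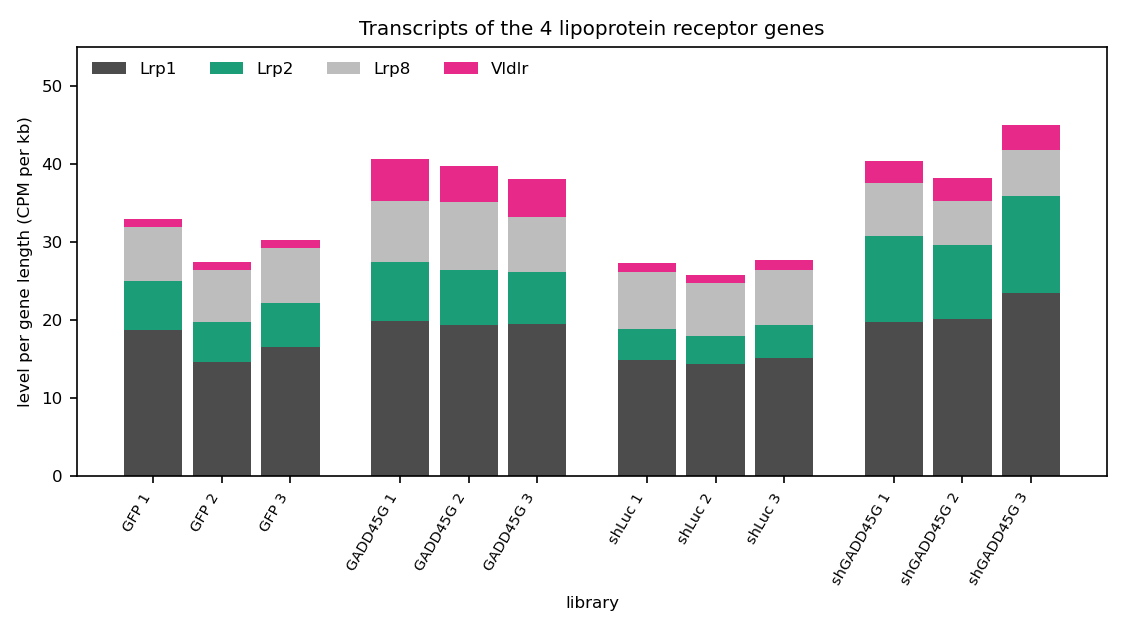
Stacked level of the 4 receptor genes per kilobase of gene length (CPM per kb, axis from 0) in each of the 12 libraries. The treated libraries have taller stacks than their controls, and Lrp1 is the largest segment in every library. Across groups, the Vldlr segment is tallest in GADD45G and the Lrp2 segment in shGADD45G.

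Apoe, the secreted carrier with the largest log2 difference under GADD45G, differed in opposite directions in the 2 experiments. Apoe (ENSMUSG00000002985, chromosome 7 from 19696109 to 19699188, minus strand) was at 1596, 1593 and 1576 CPM in GFP and at 3657, 3758 and 3529 CPM in GADD45G. It was at 6285, 6259.8 and 5808 CPM in shLuc and at 5039, 5175 and 3223 CPM in shGADD45G. Every GADD45G library was above every GFP library, and every shGADD45G library was below every shLuc library. The control groups themselves stood far apart, with shLuc above GADD45G, and the GADD45G and shGADD45G ranges overlapped. Apoe took 0.161% of all counts in GFP, 0.362% to 0.373% in GADD45G, 0.578% to 0.622% in shLuc and 0.315% to 0.508% in shGADD45G.

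The log2 difference of Apoe was 1.21 (SE 0.04), 2.31-fold higher, in GADD45G against GFP, and it stayed at 1.17 to 1.23 with any 1 library left out. For shGADD45G against shLuc it was -0.44 (SE 0.16), 1.36-fold lower. Without shGADD45G library 3, the lowest, it was -0.26. Microglia also express Apoe, and their markers moved with it in the knockdown experiment: the 10 microglial and macrophage markers summed to 240.1, 265 and 217 CPM in shLuc and 24.7, 62.3 and 55.1 CPM in shGADD45G, and 9 of the 10 fell in edgeR's test. In the overexpression experiment that sum was 62.4 to 67.4 CPM in GFP and 24.1, 26.8 and 101 CPM in GADD45G, so in libraries 1 and 2 it was lower where Apoe was higher. The part of microglia in the Apoe difference of the knockdown experiment was not tested.

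Clu (ENSMUSG00000022037, chromosome 14 from 65968483 to 65981547, plus strand) encodes clusterin, a secreted chaperone that, like ApoE, is carried on brain lipoproteins and binds LRP2 and VLDLR. Its level was 1704, 1731 and 1699.7 CPM in GFP and 1864, 1759 and 2011 CPM in GADD45G. It was 2626, 2589.6 and 2516 CPM in shLuc and 2230.5, 2716 and 2876 CPM in shGADD45G. The GADD45G libraries lay just above GFP, the knockdown groups overlapped, and both of the latter stood above both groups of the overexpression experiment. The log2 differences were 0.15 (SE 0.05) and 0.03 (SE 0.10); the first was 0.09 without GADD45G library 3, and the second was -0.05 to 0.13 with 1 library left out and -0.00 with upper quartile scaling. Per kb, the ratio of Apoe to Clu was 1.49 ± 0.0128 in GFP, 3.14 ± 0.307 in GADD45G, 3.81 ± 0.0921 in shLuc and 2.83 ± 0.937 in shGADD45G (SD, n = 3 each).

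Apod (ENSMUSG00000022548, chromosome 16 from 31296192 to 31314808, minus strand), a lipocalin that binds small lipids such as arachidonic acid, was near the lower limit of detection. Its level was 0.609, 1.00 and 0.773 CPM in GFP and 0.996, 2.09 and 2.12 CPM in GADD45G. These groups met at their edges: they overlapped after joint scaling and did not overlap when the experiment was scaled alone. The log2 difference was 1.13 (SE 0.38), and 0.96 to 1.39 with 1 library left out. Counts of Apod in the knockdown experiment were lower still, with 3 in all in shLuc and 12 in shGADD45G, a ratio of 4.08 with a 95% exact interval of 1.10 to 22.5 that covers counting error only. It did not pass the filter on low counts there. ShLuc library 3 had no Apod count, which allows a level of up to 0.172 CPM (3 counts), and 9 of the 12 counts were in shGADD45G library 2.

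Abca1 (ENSMUSG00000015243, chromosome 4 from 53030787 to 53159895, minus strand) encodes the transporter that moves cholesterol and phospholipid onto ApoE. Its level was 255, 227 and 236 CPM in GFP and 984, 967 and 894 CPM in GADD45G. It was 518, 531 and 564 CPM in shLuc and 899, 599.6 and 732 CPM in shGADD45G. Treated libraries were above their controls in both experiments, by a wide margin under GADD45G and a narrow one in shGADD45G library 2, and the GADD45G and shGADD45G ranges overlapped. The log2 difference was 2.00 (SE 0.06), 4.0-fold, in the overexpression experiment, where 515 of 15418 genes had a larger one. For shGADD45G against shLuc it was 0.48 (SE 0.13), and 0.32 without shGADD45G library 1.

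In the overexpression experiment the exporter and its acceptor were thus both higher, and in the knockdown experiment Abca1 was higher and Apoe lower. The per-kb ratio of Abca1 to Apoe was 0.0311 ± 0.00177 in GFP and 0.0536 ± 0.00168 in GADD45G, and 0.0182 ± 0.00163 in shLuc and 0.0359 ± 0.0115 in shGADD45G (SD, n = 3 each). Its mean was higher in the treated group of each experiment, and the libraries did not overlap, at 0.0294 to 0.0329 against 0.0523 to 0.0555 and at 0.0170 to 0.0200 against 0.0239 to 0.0469.

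Lpl (ENSMUSG00000015568, chromosome 8 from 68880491 to 68907448, plus strand) encodes lipoprotein lipase, which releases fatty acids from triglyceride-rich particles. Its level was 20.7, 21 and 20.2 CPM in GFP and 16.7, 17.6 and 69.2 CPM in GADD45G. It was 32.9, 33.7 and 32.3 CPM in shLuc and 35.1, 26.1 and 33.2 CPM in shGADD45G. GADD45G libraries 1 and 2 lay below every GFP library and library 3 above them. The log2 difference was 0.75 (SE 0.44) with all libraries and -0.26 without GADD45G library 3. In that library the lung and blood markers were also high. The 5 adipocyte markers were low, at a sum of 2.93 CPM against 0.0546 to 0.394 in its replicates, and Plin1 had no count there. The 10 microglial and macrophage markers summed to 101 CPM against 24.1 and 26.8 in its replicates, and to 62.4 to 67.4 in GFP. The 7 fibroblast and mural markers summed to 637 CPM against 438 and 448, and to 942 to 965 in GFP. The 7 endothelial markers summed to 75.3 CPM against 14.1 to 14.3 in its replicates. In GFP the endothelial sum was higher still, at 136 to 143 CPM, of which Kdr alone made 134 to 141. The part of such cells in the Lpl level was not tested. The knockdown difference was -0.06 (SE 0.12), and -0.14 to 0.06 with 1 library left out.

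**Figure D3:**
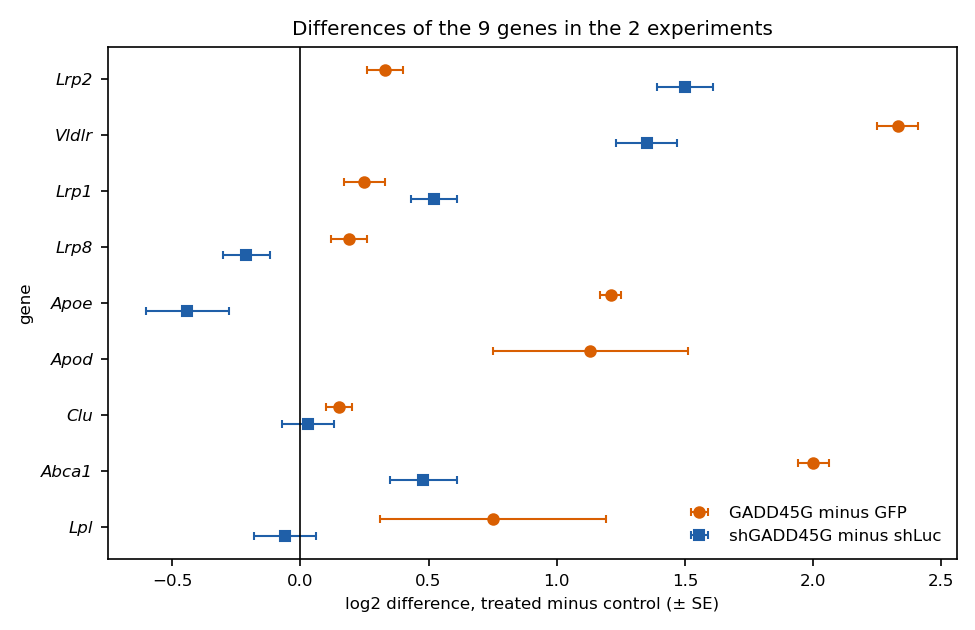
Log2 difference, treated minus control, of each gene in the overexpression and knockdown experiments, with bars for the SE of edgeR's fit. Vldlr, Lrp2, Lrp1 and Abca1 lie right of 0 in both experiments, Apoe lies at 1.21 and -0.44, and Apod has no knockdown value.

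The libraries labelled GADD45G and GFP differed in much of the transcriptome. Of 15418 genes tested, 30.6% were higher and 29.7% lower at an adjusted p under 0.05, 60.3% in either direction. Of the 9 members 8 were higher and none lower past the same threshold. The number higher was 5 when no filter on low counts was used or all 12 libraries were fitted together, and 4 or 5 when GFP library 1, 2 or 3 or GADD45G library 1 was left out. Lpl was past the threshold as lower without GADD45G library 3. Between shGADD45G and shLuc 5.15% of 14914 genes were higher and 5.27% lower, 10.4% in either direction. There 4 of the 8 members that passed the filter were higher (Lrp2, Vldlr, Lrp1 and Abca1), and none was lower. The number higher was 3 with upper quartile factors or limma-voom and 2 without shLuc library 2, and Apoe was lower with DESeq2, without a filter, with all 12 libraries in 1 fit, and without shGADD45G library 1 or 3, as was Lrp8 without library 1. Groups did not overlap for 65.5% of all genes in the overexpression experiment and for 7 of the 9 members, all above their controls (32.5% of genes, with 33.0% below). For the hairpins they did not overlap for 32.5% of genes and for 6 members, 4 above (16.0% of genes) and 2 below (16.6%). The members' median log2 difference was 0.75 and 0.25, beside 0.01 over all genes in each experiment. Since these comparisons chose the members, nothing is read from these counts.

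The rest of the pathway was described with 84 further genes in 6 lists by role, with levels scaled within each experiment. In the overexpression experiment 67 of them were tested, of which 23 rose and 23 fell (34.3% each, beside 30.6% and 29.7% of all genes), and their median log2 difference was 0.00. In the knockdown 65 were tested, of which 4 rose and 4 fell (6.15% each, beside 5.15% and 5.27% of all genes), with a median of -0.03. The same shares of all genes stand beside each list below, and no list was tested against them. The knockdown counts depended on single libraries: without shLuc library 1, 2 or 3 the number that rose was 1, 1 and 2 and the number that fell was 1 in each case, and without shGADD45G library 1 there were 8 of each. Markers of other cell types also differed between GADD45G and GFP. The 8 neuron markers summed to 241 to 248 CPM in GFP and 69.4 to 78.4 CPM in GADD45G, with 7 of 7 tested lower. The oligodendrocyte lineage markers summed to 585 to 598 and 117 to 129 CPM, with 2 of 7 lower and 3 higher. Their part in the falls given below was not tested.

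The other LDL receptor family genes went in both directions. Under GADD45G 2 of 12 rose (16.7%), 5 fell (41.7%) and 5 did not pass the test, with a median log2 difference of -0.08. Lrp4, which organises synapses with agrin, fell from 509 ± 30.7 to 105 ± 5.39 CPM (SD, n = 3; log2 -2.27, SE 0.06, edgeR adjusted p = 9.8e-11). Lrp12 fell by 0.66 on the log2 scale (adjusted p = 3.5e-07 in edgeR). Sorl1, a sorting receptor that binds ApoE and the amyloid precursor protein, rose from 157 ± 5.12 to 381 ± 33.7 CPM (SD, n = 3; log2 1.29, edgeR adjusted p = 9.7e-09). Among the hairpin libraries 1 of 12, Lrp10, fell (log2 -0.31, edgeR adjusted p = 0.0266), and this call was lost without any single shLuc library (adjusted p up to 0.167).

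Of the ligands, chaperones and adaptors, 4 of 15 tested rose (26.7%) and 6 fell under GADD45G, with a median log2 difference of -0.15. Dab1, the adaptor through which VLDLR and LRP8 pass on the reelin signal, fell from 89.2 ± 1.99 to 24.4 ± 2.71 CPM (SD, n = 3; log2 -1.87, SE 0.06, edgeR adjusted p = 1.0e-09). It also fell in the knockdown experiment, from 46.2 ± 1.95 to 27.5 ± 4.08 CPM (SD, n = 3; log2 -0.75, SE 0.12, edgeR adjusted p = 0.0036), and neither call was lost when any 1 library was left out. Dab1 and Vldlr thus differed in opposite directions in both experiments. Sorcs1, a sorting receptor, and A2m, a protease inhibitor cleared by LRP1, fell under GADD45G by 2.52 and 1.21 on the log2 scale (edgeR adjusted p = 8.6e-11 and 7.6e-09). Cubn and Dab2, the coreceptor and the endocytic adaptor of megalin, rose by 1.82 and 0.94 (edgeR adjusted p = 7.6e-05 and 1.5e-07). Cubn was low, at 1.31 ± 0.323 CPM in GFP and 4.62 ± 0.587 in GADD45G (SD, n = 3). The chaperones Lrpap1 and Mesd of the same list fell by 0.36 and 0.15 (edgeR adjusted p = 4.5e-05 and 0.035). The Mesd call was lost in 2 fits with 1 library left out. Amn did not pass the filter on low counts. Cubn, Dab2, Lrpap1, Mesd and Amn were named after their values were seen. Between shGADD45G and shLuc, where Lrp2 differed more, Cubn was at 0.52 (edgeR adjusted p = 0.192) and Dab2 at 0.38 (adjusted p = 0.0516). The LRP1 ligand Thbs1 rose in both experiments. Under GADD45G it rose by 0.94 on the log2 scale (edgeR adjusted p = 1.8e-08). Between shGADD45G and shLuc it rose by 0.45 (edgeR adjusted p = 0.00884), and this second call was lost without any single shLuc library (adjusted p up to 0.0727).

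Cholesterol efflux genes included others that rose where Abca1 was higher. Under GADD45G 7 of 14 tested rose and 4 fell (28.6%), with a median log2 difference of 0.07, and the number that rose was 4 with DESeq2 or with all 12 libraries in 1 fit, and 3 without GFP library 2 or 3. Abcg1, a second cholesterol exporter, rose from 1.26 ± 0.306 to 6.76 ± 1.27 CPM (SD, n = 3; log2 2.42, edgeR adjusted p = 7.4e-06), and Nr1h3, the liver X receptor alpha, from 5.94 ± 0.619 to 14.4 ± 1.27 CPM (SD, n = 3; log2 1.29, edgeR adjusted p = 6.3e-06). Both were named after their values were seen, and both calls held with any 1 library left out. By contrast Npc2, which hands cholesterol out of lysosomes, fell by 1.62 and the transporter Abca2 by 0.84 on the log2 scale (edgeR adjusted p = 3.7e-09 and 2.6e-07). Soat1, which esterifies cholesterol for storage, rose by 0.63 (edgeR adjusted p = 2.4e-06). Nr1h2, the liver X receptor beta, was at 0.00 (edgeR adjusted p = 0.971). Rxra fell by 0.30 and Rxrb rose by 0.13 (edgeR adjusted p = 1.1e-04 and 0.023). The Rxrb call was lost in 4 fits with 1 library left out. Nr1h2, Rxra and Rxrb were also named after their values were seen. Under the hairpin 1 of 14 rose, Abca5 (log2 0.56, edgeR adjusted p = 0.0116; up to 0.0797 without shLuc library 1 or 2, where the call was lost). Abcg1 was at -0.28 there (adjusted p = 0.438 in edgeR) and Nr1h3 at -0.26 (adjusted p = 0.29), beside the 0.48 of Abca1.

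Among apolipoproteins and remodelling factors 2 of 5 tested rose and 1 fell under GADD45G, with a median log2 difference of 0.76. That median is the value of Apoa2, at 0.618, 0.546 and 6.24 CPM in GADD45G libraries 1 to 3, which did not pass the test (edgeR adjusted p = 0.418; named after its values were seen). Without library 3 the median was 0.15 and the number that fell was 2, and with limma-voom the median was 0.24. Without a filter on low counts 6 of 10 rose, and the genes this adds, such as Apob at 0.0562, 0 and 33.8 CPM, were highest in library 3. The phospholipid transfer protein Pltp rose by 0.79, the lipid-loading protein Mttp rose by 0.84 and the mitochondrial Apoo fell by 0.40 on the log2 scale (edgeR adjusted p = 3.8e-07, 3.4e-06 and 0.00334). Of the 4 tested in the knockdown experiment none passed. Among lipase partners and related lipases 1 of 8 rose (12.5%) and 4 fell under GADD45G, with a median of -0.13 (3 of 13 rose without a filter): Furin, which cleaves lipase regulators, rose by 0.42, and the endothelial lipase Lipg and the lysosomal protein Glmp fell by 1.46 and 0.30 (edgeR adjusted p = 1.2e-05, 0.00137 and 0.00107). Under the hairpin the protease Pcsk6 rose (log2 0.62, edgeR adjusted p = 0.00138), a call kept without any 1 library. Among fatty acid uptake and scavenger genes 7 of 13 rose (53.8%) and 3 fell (23.1%) under GADD45G, with a median of 0.20, and 4 rose without GFP library 2 or 3. Pparg, the lipid-sensing nuclear receptor, rose from 0.653 ± 0.312 to 4.33 ± 0.588 CPM (SD, n = 3; log2 2.72, edgeR adjusted p = 3.5e-05). The brain fatty acid binding protein Fabp7 fell by 0.83 and the fatty acid transporter Slc27a4 by 0.47 (edgeR adjusted p = 2.1e-07 and 4.8e-05). Between shGADD45G and shLuc 2 of 12 fell: Fabp7 by 0.32 and the macrophage scavenger receptor Msr1 by 1.70 (edgeR adjusted p = 0.0336 and 0.0394), calls that were lost in 4 and 5 of the 6 fits with 1 library left out (adjusted p up to 0.159 and 0.181).

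**Figure D4:**
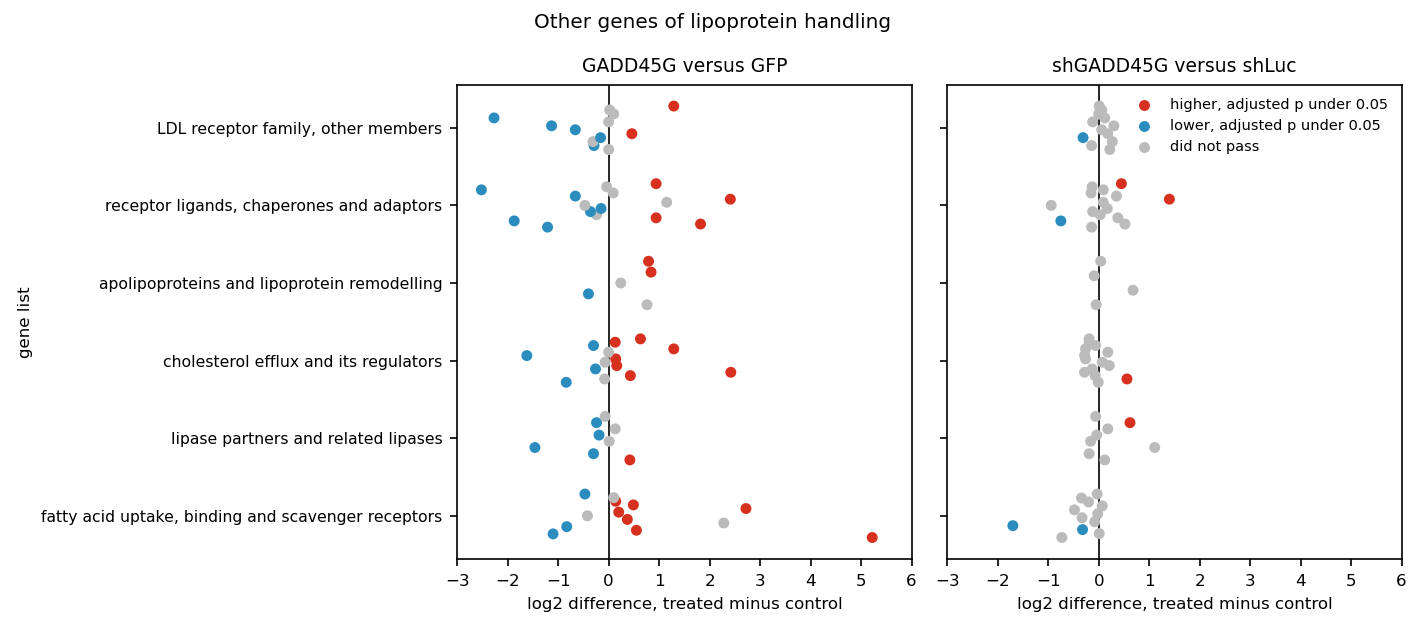
Log2 difference, treated minus control, of each tested gene of the 6 lists (rows) in the overexpression experiment (left) and the knockdown experiment (right), coloured by edgeR's call at an adjusted p under 0.05. Under GADD45G 23 genes lie to each side among those called, and 4 to each side in the knockdown experiment.

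The genes whose profile over the 12 libraries lay nearest to each member were sought among 12930 protein-coding genes. The distance was the mean absolute difference of log2 CPM, each profile centred on its own mean. A small constant was added to each CPM before the log, which flattens the profiles of genes near 0. The closest to Vldlr were Cyb5r2 (0.154), Asns (0.189) and Trim66 (0.201). Cyb5r2 and Trim66 were low, so the added constant weighs on their distances. In GFP, GADD45G, shLuc and shGADD45G, Cyb5r2 averaged 0.146, 2.49, 0.406 and 1.46 CPM, and Trim66 0.681, 4.81, 1.08 and 3.29 CPM. Asns, asparagine synthetase, stood at mean levels of 23.3, 89.3, 31.9 and 74.3 CPM in GFP, GADD45G, shLuc and shGADD45G, beside 10.0, 50.1, 12.1 and 30.5 CPM for Vldlr. The closest to Lrp2 were Kcnh7 (0.193), Hprt (0.199) and Cpd (0.227), and those to Abca1 were Glb1l2 (0.120), Caps2 (0.124) and Piezo1 (0.133). The syndecan Sdc4, a cell-surface heparan sulfate proteoglycan, was nearest to Apoe (0.0938), at 208, 460.2, 681 and 526 CPM in the same group order beside 1588, 3648, 6117 and 4479 CPM for Apoe, followed by Mef2c and Slc25a10 (0.133 each). Lrp1, Lrp8 and Clu had neighbours at 0.0572 (Setbp1), 0.0618 (Fam118a) and 0.0676 (Zfp423). Apod was nearest to Reep1 (0.268). Lpl was nearest to Reln (0.166), which like Lpl was highest in GADD45G library 3, at 3.42 CPM against 1.01 and 1.20. Without that library the gene nearest to Lpl was Pknox2 (0.0802), those nearest to Lrp2, Lrp8 and Clu were Hprt, Kctd21 and Dtna, and the nearest of each of the other 5 members was as above.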

How the data were processed

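Total RNA of 12 libraries was sequenced after stranded library preparation. Per the submitters' processing notes, STAR 2.5, HTSeq 0.6.1, DESeq2 and mm10 were used, without parameters, and no source used here states how the counting treated strand. The authors deposited 1 table per experiment, and per the file headers each gives for every gene its read counts, all whole numbers, and a length in bases. Groups came from the labels. Columns named G45g, shG45g and shCtrl were taken as GADD45G, shGADD45G and shLuc. The deposited normalized values and fold changes were not used here.

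The 6 libraries of each experiment were fitted separately in edgeR 4.0.16 under R 4.3.3 (TMM factors, filterByExpr, quasi-likelihood F test, no covariate), with Benjamini-Hochberg adjustment over all genes tested and calls at 0.05. Levels in CPM used TMM factors over the 22845 genes of both tables. Values given for lists, markers and their genes were scaled within each experiment. Alternatives were RLE and upper quartile factors, DESeq2 1.42.0, limma-voom 3.58.1, no filter, at least 1 CPM in 3 libraries, the replicate number as a block, all 12 libraries in 1 fit, and each library left out. Nearest profiles without GADD45G library 3 were added after seeing the data. The steps were tested on simulated data.

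The members and lists were chosen with earlier results of these data known. Besides the members and Gadd45g, the text names by rule up to 3 called genes per list and comparison with the smallest p. It also names by rule the 3 nearest profiles per member, and some genes are left out for length. Cubn, Dab2, Lrpap1, Mesd, Amn, Abcg1, Nr1h3, Nr1h2, Rxra, Rxrb and Apoa2 were added after their values were seen. Promoters came from RefSeq GRCm38.p6 and covered 7 of the 9 members. Motifs AGGTCA, its direct repeat with a gap of 4 bases, TGACGTCA and TTCNNNGAA were also searched, on both strands, and are held by 16.3%, 0.0152%, 1.79% and 8.3% of windows; none matched in the 3 windows shown. Protein features were not analysed here, and some named genes are not reported here. The intervals and limits on low counts cover counting error only.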

Additional observations from a re-analysis of the deposited data

How the results depend on the processing

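In all 136 recomputations with other scaling, tools, filters or fits, the members' differences moved by less than 1 SD between replicates. That SD is wide for Lpl under GADD45G, which was at 0.41 with limma-voom and 0.47 with a replicate block, against 0.75, and Clu in the knockdown experiment was at -0.00 with upper quartile factors. With 1 library left out, 100 of 102 values moved by less than 1 SD between replicates. The exceptions were both under GADD45G, where Lpl ranged from -0.26 to 1.11 and Clu from 0.09 to 0.22. The causes were not tested.

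In the knockdown experiment 768 genes were higher and 786 lower. All 12 libraries in 1 fit gave 1349 and 1321, and leaving out 1 library gave 239 to 1379 and 291 to 1366. The pathway genes called there numbered 1 to 8 higher and 1 to 8 lower. The low counts came without a shLuc library and the high counts without shGADD45G library 1. In the overexpression experiment the counts stayed at 3907 to 5098 higher and 4072 to 5045 lower.

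Deviations of same-numbered libraries correlated at -0.082, -0.055 and 0.012 in the overexpression experiment, and those of different-numbered libraries at -0.057 to 0.102. These values do not settle whether replicate numbers pair the samples there. Each group of 3 was centred on its own mean, which ties the correlations together, and GADD45G library 3 stood apart. In the knockdown experiment same-numbered libraries correlated at -0.002, 0.199 and 0.175, and the crossed pairs of libraries 2 and 3 at -0.199 and -0.18. Whether replicate numbers pair the samples is likewise not settled in the knockdown experiment. With the replicate number as a block, 4511 genes were higher and 4437 lower in the first, and 761 and 809 in the second; the pathway genes called were 22 and 23, and 5 and 4. The block put Apoe past the threshold as lower in the knockdown experiment, and the apolipoprotein list's median under GADD45G at 0.24. The Apoe level in GFP was 1601 CPM when the experiment was scaled alone. Low counts limit Apod.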

Other observations

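Several genes of lipoprotein and fatty acid handling outside the 9 were high in GADD45G library 3 and far lower elsewhere in that experiment; they were picked after their values were seen. Apob, the core protein of particles from liver and gut, was at 33.8 CPM there, at 0.0562 and 0 CPM in GADD45G libraries 1 and 2, and had no count in GFP. Apoc1 was at 7.97 CPM against 0.0562 and 0.164, and Gpihbp1, which anchors lipoprotein lipase to capillary endothelium, was at 6.56 CPM against 0 and 0. The fatty acid transporter Cd36 was at 47.3 CPM against 2.59 and 3.11, and at 0.335 to 0.562 CPM in GFP. Fabp4 was at 5.21 CPM against 0.0562 and 0.109, and Angptl4, an inhibitor of lipoprotein lipase, was at 6.29 CPM against 0.0562 and 0.491. The lung markers summed to 1379 CPM in the same library. The source of these reads was not tested.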
